A study of Arabidopsis thaliana with 24 samples.

Results

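The 100 transcripts described are those of Arabidopsis thaliana roots that stood furthest above their earlier levels a day after 2 DNA-damaging drugs were added. Each probe set, the group of probes that reads 1 transcript on the Affymetrix ATH1 array, was scored on log2(signal + 16) in roots as the lower of its 2 arrays at 24 h minus the highest of its mean levels at 0.5, 1, 3, 6 and 12 h. The 100 probe sets with the highest scores were taken out of 22746 that are not array controls, so they were chosen by their measured root signals. AT1G26390, AT5G38910 and AT2G15220 were to be left out, but they ranked 15503, 22646 and 176, so nothing changed by leaving them out. The array's annotation lists 1 gene for 54 of the 100 probe sets, 53 genes in all because AT1G74770 is read by 2 of them. It lists several genes for 1 probe set, and the other 45 are not in it and carry no name here.

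The plants were the accession Col-0, 16 days old, kept at 24 °C and 50% humidity. All of them, at every time, received bleomycin at 1.5 µg/ml together with mitomycin at 22 µg/ml, so there is no group without the drugs here, and untreated plants were not analysed. Shoots and roots were taken after 0.5, 1, 3, 6, 12 and 24 h, which made 12 groups of 2 arrays, or 24 arrays. The light period lasted 16 h and the drugs were added after its first 3 h. The samples were therefore taken 3.5, 4, 6, 9, 15 and 3 h after lights on, and the samples at 0.5 h and 24 h were nearly matched for the hour. Whether the 2 arrays of each group stem from different plants is not given in the labels. The spread between them, and every p-value below, may be technical.

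Bleomycin cuts DNA strands and mitomycin links the strands of the helix. In plants, such damage activates the transcription factor SOG1, which turns on repair and cell cycle genes. Roots also adjust their uptake of minerals, their transport of sugars and amino acids and their release of phenolic compounds through transcripts of transporters and conjugating enzymes, and members of these classes are found among the genes below.

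The arrays of the roots had median signals of 45.2 to 47.8 and those of the shoots of 36.0 to 39.9, and arrays of the same group correlated with r of 0.987 to 0.993 in roots and 0.984 to 0.992 in shoots over log2 signals. The tissue labels fitted their markers. PYK10, an abundant root beta-glucosidase, had signals of 2937 to 3681 in roots against 362 to 798 in shoots on the earlier arrays. LHCB4.1, a light-harvesting protein of leaves, had 126 to 226 in roots against 3939 to 7343 in shoots on these arrays. Both lay within their earlier range in roots at 24 h, at 3297 and 3411 for PYK10 and at 202 and 189 for LHCB4.1. The shoot arrays at 12 h, first replicate, and at 24 h, second replicate, were the nearest to the roots, with mean r to the root arrays of 0.714 and 0.711 against 0.678 to 0.692 for the others. Markers of root cap, endodermis, phloem and root meristem had no listed probe set, so they could not be looked up. In such tissue samples, fewer cells of a type and less RNA per cell cannot be told apart.

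In roots, the 100 transcripts stood higher at 24 h than at any earlier time, as the rule requires, and no test is given for these values. Their median signal per array was 43.5 to 63.4 on the 10 earlier arrays and 127 and 138 at 24 h. The mean at 24 h exceeded the highest earlier mean by 0.40 to 2.34 on the log2 scale, with a median of 0.64, and exceeded the mean at 0.5 h by a median of 0.96. The difference from the highest earlier time was at least 1 for 15 of the 100, which are also all such probe sets in the series. Both arrays at 24 h lay above all 10 earlier arrays for 98 of the 100, and for 5.86% of all probe sets. This follows largely from the rule. Where it is said of genes or classes below, it only describes them. The share of the summed signal that the 100 took up was 0.291 to 0.426% on the earlier root arrays and 0.847 and 0.864% at 24 h.

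**Figure D1:**
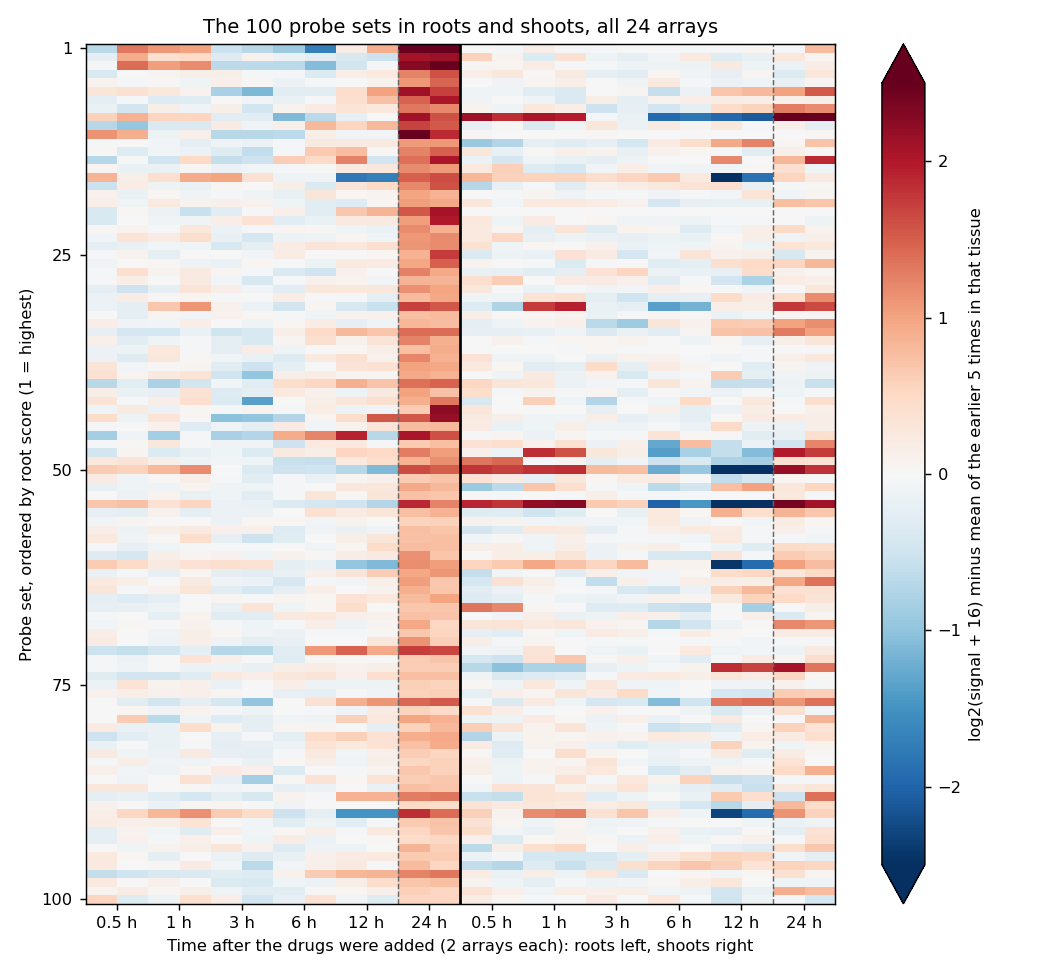
The plot shows every array for the 100 probe sets, in rows ordered by root score from 1 at the top, as log2(signal + 16) minus the mean of the 5 earlier times in the same tissue; red is higher and blue is lower, colours end at 2.5, roots are on the left and shoots on the right, and dashed lines set off 24 h. All rows turn red at 24 h in roots, by which they were chosen, whereas in shoots 30 of the 100 passed the test.

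The label of a rise at 24 h alone was not exact for all 100. At 12 h, 68 of them lay within 0.5 of their level at 0.5 h on the log2 scale, as did 90.7% of all probe sets. Another 23 were already more than 0.5 above it and 9 more than 0.5 below, against 4.75% and 4.59% of all. The members were less often flat between these times than the array as a whole. Both times entered the rule, so this describes the chosen probe sets and is no independent result. The highest of the 5 earlier means was that at 12 h for 46 of the 100, and for 22.8% of all probe sets. The lowest was that at 3 h for 39 of the 100, and for 20.4% of all. The difference between the highest and lowest earlier mean had a median of 0.49. It was under 0.5 for 51 and over 1 for 24, against 82.8% and 3.81% of all probe sets. Signals were low for some, with 11 of the 100 below 16 at every earlier time, as were 26.8% of all.

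Both root arrays at 24 h differed by a median of 0.12 on the log2 scale for the 100 and 0.13 for all probe sets. Large gaps were more frequent among the members, with 14 that differed by more than 0.5 and 2 by more than 1, against 3.02% and 0.167% of all. The first array was the higher in 52. When the 24 h level was taken from the second array alone, 60 of the 100 remained among the 100 highest, and 54 remained when it was taken from the first.

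The members nearest the threshold had scores that cannot be told from those just outside. The last 3 were a probe set without a listed gene at 0.392, AT2G38740 at 0.391 and PSAE-1, a subunit of photosystem I, at 0.391. The next 3 were AT5G16450 at 0.389, AT5G60250 at 0.388 and AT1G23040 at 0.388.

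The largest differences belonged to 254550_at, a probe set without a listed gene. Its signal in roots was 44.5 and 226 at 0.5 h, 191 and 179 at 1 h, 50.8 and 43.8 at 3 h, 35.99 and 13.8 at 6 h, 95.1 and 167 at 12 h and 819.9 and 1229 at 24 h. It was lowest at 6 h and stood at 24 h far above every earlier array, with a mean 2.34 above the highest earlier mean on the log2 scale. In shoots its signal was between 0.499 and 2.81 on the 10 earlier arrays and 0.537 and 13.3 at 24 h, near the bottom of the range except on the second array at 24 h. Next among the unlisted were 253502_at with a score of 1.16, whose root signals were between 0.515 and 75.9 on the 10 earlier arrays and 154 and 457 at 24 h. Then came 251545_at with a score of 1.04, whose root signals were between 87.8 and 144 on the 10 earlier arrays and 303 and 390.2 at 24 h. Among listed genes AT1G73120 had the highest score, 1.64, and its root signals were 10.7 and 44.4 at 0.5 h, 26.3 and 28.7 at 1 h, 9.66 and 18.5 at 3 h, 12.4 and 10.5 at 6 h, 8.15 and 6.09 at 12 h and 119 and 124 at 24 h. Its arrays at 24 h were nearly equal and far above the others, of which the second at 0.5 h was the highest.

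A role known from the gene or its family could be given for 32 of the 53 genes, and the classes are described in turn, by their genes or by examples. These classes were drawn after the members were known. They count the members and are no result about a pathway.

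Metals are handled by 3 of them. AT1G74770 encodes a ubiquitin ligase with hemerythrin domains, of a family that lowers the response of roots to iron shortage. AT3G12900 encodes the hydroxylase that makes the coumarin fraxetin, which roots release to mobilise iron. AT3G58060 encodes a metal transporter of the cation diffusion facilitator family in the vacuolar membrane. The first probe set of AT1G74770, 262218_at, gave root signals of 95.04 and 111 at 0.5 h, 88.3 and 89.4 at 1 h, 114 and 108 at 3 h, 99.7 and 111 at 6 h, 158 and 199.6 at 12 h and 347 and 519.9 at 24 h. Its second, 262217_at, was dimmer at 11.1 and 20.5 at 0.5 h, 16.1 and 8.07 at 1 h, 13.7 and 18.1 at 3 h, 22.7 and 13.3 at 6 h, 40.8 and 47.7 at 12 h and 88.5 and 134 at 24 h. Both probe sets were higher at 12 h than before and higher still at 24 h, with means 1.19 and 1.05 above the highest earlier mean on the log2 scale. AT3G12900 had root signals of 10.1 and 16.7 at 0.5 h, 9.56 and 12.7 at 1 h, 11.1 and 13.8 at 3 h, 11.7 and 16.1 at 6 h, 9.90 and 10.5 at 12 h and 27.9 and 118 at 24 h. Its 2 arrays at 24 h differed more than those of any other member, and even the lower one exceeded every earlier array. AT3G58060 had root signals of 11.5 and 13.9 at 0.5 h, 8.38 and 12.3 at 1 h, 12.1 and 10.9 at 3 h, 16.01 and 12.7 at 6 h, 12.5 and 13.5 at 12 h and 35.4 and 79.4 at 24 h, flat until 12 h and higher on both arrays at 24 h.

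Organic solutes are carried by 4 members. OCT1, an organic cation and carnitine transporter, had root signals of 42.1 and 34.1 at 0.5 h, 8.66 and 13.1 at 1 h, 0.653 and 0.638 at 3 h, 1.06 and 13.5 at 6 h, 9.72 and 9.44 at 12 h and 149 and 81.4 at 24 h. Its level was near 0 at 3 h and highest at 24 h, when the lower array was still about 2-fold above any earlier one. AT5G38820, of an amino acid transporter family, had root signals of 33.1 and 28.4 at 0.5 h, 30.96 and 26.99 at 1 h, 34.4 and 31.1 at 3 h, 25.5 and 29.6 at 6 h, 30.2 and 32.9 at 12 h and 82.5 and 111 at 24 h, a flat course until the last time. The sugar transporter family member AT5G18840 had root signals between 46.1 and 140.3 on the 10 earlier arrays and 218 and 206 at 24 h. SWEET14, which moves sugars across the plasma membrane, had signals between 10.3 and 16.98 on the 10 earlier arrays and 26.1 and 24.3 at 24 h. All 4 had both arrays at 24 h above the 10 earlier ones.

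**Figure D2:**
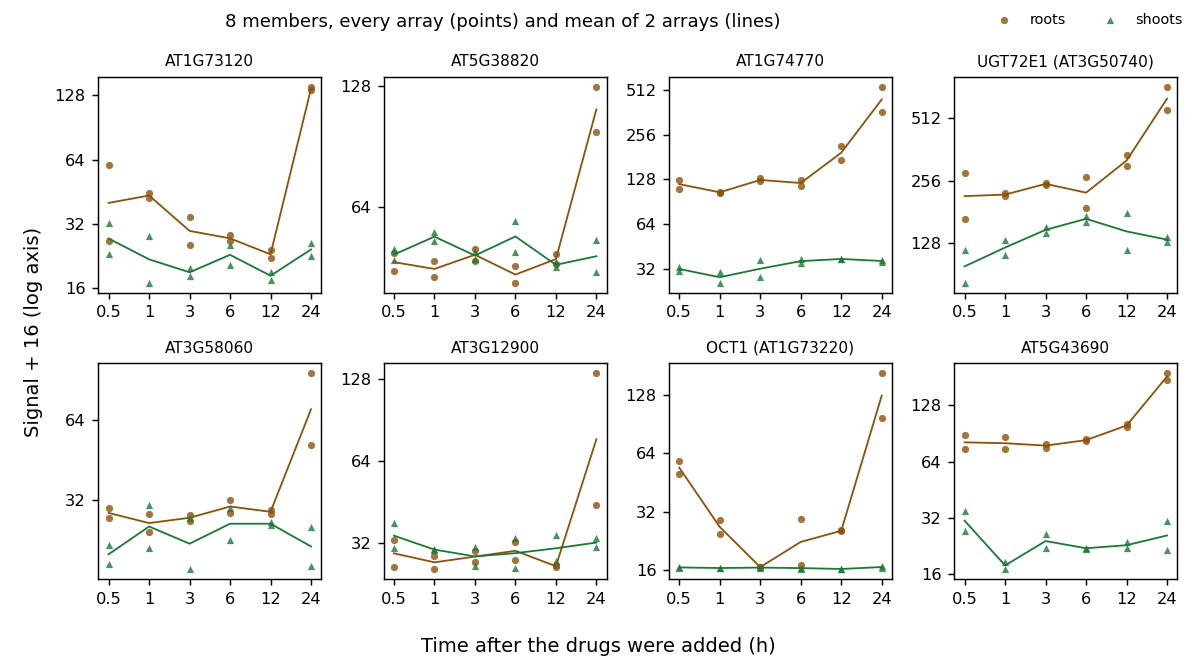
The plot shows signal plus 16 on a log axis against hours after the drugs were added, for 8 members in roots (brown circles) and shoots (green triangles), with a point for each array and a line through the mean of 2. AT1G73120 reached 119 and 124 in roots at 24 h, and none of the 8 passed the test in shoots at 24 h against the earlier times. The 8 were picked by hand, so this is no share of the members, of which 30 of the 100 passed.

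Enzymes of specialised metabolism and conjugation made up 6 members. UGT72E1, a glucosyltransferase of the lignin precursor coniferyl aldehyde, had root signals of 151 and 261 at 0.5 h, 206 and 199.9 at 1 h, 234 and 228 at 3 h, 251 and 172 at 6 h, 285 and 324 at 12 h and 544 and 709.9 at 24 h, already highest at 12 h among the earlier times. AT5G43690, of the sulfotransferase family, had root signals between 58.6 and 85.8 on the 10 earlier arrays and 174 and 159.6 at 24 h. AT1G24430, of an acyltransferase family, had root signals between 88.7 and 128 on the 10 earlier arrays and 253 and 204 at 24 h. The terpene synthase family member AT3G29410 had root signals between 172 and 224 on the 10 earlier arrays and 360.1 and 369 at 24 h. Each of these 4 stood clear of its earlier arrays. The glutathione transferase GSTU18, which conjugates glutathione to toxic compounds, had root signals of 27.7 and 22.5 at 0.5 h, 23.2 and 27.5 at 1 h, 47.9 and 44.5 at 3 h, 49.4 and 51.2 at 6 h, 42.7 and 55.9 at 12 h and 75.1 and 74.3 at 24 h, higher from 3 h on and highest at 24 h. AT2G39980, another acyltransferase family member, had root signals between 12.8 and 29.3 on the 10 earlier arrays and 37.4 and 37.9 at 24 h.

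Hormones and polyamines are represented by 2 genes. AT5G15950 encodes an S-adenosylmethionine decarboxylase, which supplies the aminopropyl groups of the polyamines spermidine and spermine, and its root signals were 44.3 and 40.6 at 0.5 h, 89.4 and 127 at 1 h, 55.6 and 44.1 at 3 h, 32.6 and 53.2 at 6 h, 34.02 and 28.9 at 12 h and 202 and 179 at 24 h. It had an earlier peak at 1 h and a higher level at 24 h. AT1G48670, of the GH3 family, whose members join amino acids to plant hormones, had root signals between 6.09 and 14.8 on the 10 earlier arrays and 33.2 and 29.4 at 24 h.

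Transcription factors and signalling proteins were 4 each. Of the first, AT4G37180, of the MYB-like family, had root signals between 52.98 and 89.4 on the 10 earlier arrays and 148 and 146 at 24 h. LSH9, of a small family of nuclear proteins, had root signals between 75.3 and 129 on the 10 earlier arrays and 210.3 and 174 at 24 h. The zinc finger gene AT1G68360 had root signals between 37.2 and 116 on the 10 earlier arrays and 152 and 139.96 at 24 h. All of these exceeded their earlier arrays. For bZIP58, root signals were between 14.6 and 31.7 on the 10 earlier arrays and 43.1 and 45.8 at 24 h. Of the second, the kinase family member AT5G11410 had root signals between 4.27 and 15.01 on the 10 earlier arrays and 24.4 and 27.5 at 24 h. AT1G73630, a calcium-binding EF-hand protein, had root signals between 55.8 and 96.96 on the 10 earlier arrays and 122 and 129 at 24 h. CaS, a calcium-sensing protein of the thylakoid membrane, had root signals between 16.01 and 35.6 on the 10 earlier arrays and 40.6 and 50.8 at 24 h. The protein phosphatase gene AT3G63340 had root signals between 30.4 and 48.9 on the 10 earlier arrays and 67.7 and 62.9 at 24 h. The differences in these 8 were small, with scores of 0.41 to 0.72.

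Lipids and membranes are the field of 4 further members. AT3G53980, of the lipid transfer protein family, was among the brightest, with root signals between 647 and 1036 on the 10 earlier arrays and 1801 and 1403 at 24 h. AT1G20120, of the GDSL lipase family, was dim in roots, with signals between 4.12 and 9.84 on the 10 earlier arrays and 18.9 and 18.8 at 24 h. AT2G47780, of the rubber elongation factor family, had root signals between 3.87 and 18.7 on the 10 earlier arrays and 40.9 and 43.5 at 24 h. AT5G62130, of the Per1-like family that remodels lipid anchors of proteins in yeast, had root signals between 35.6 and 47.2 on the 10 earlier arrays and 94.4 and 65.1 at 24 h. PSAE-1 was the single member with a role in photosynthesis, and its root signals were between 44.2 and 104 on the 10 earlier arrays and 104 and 103 at 24 h. Its first array at 24 h, at 104.29, was barely above the highest earlier one, at 103.98, and the second was below it. The summed shoot markers in roots at 24 h were within their earlier range, with a summed signal of 389 to 413 against 235 to 481. That range is wide. The markers LHCB4.1, LHCB4.2 and RCA each lay above their earlier root median on both arrays at 24 h. For RCA these were 145 on both, against a median of 104 and a highest value of 199.7 before. Whether shoot material added to the signal of PSAE-1 was not tested.

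The class of other metabolism and protein synthesis held 4 genes with scores of 0.42 to 0.54. AT3G28500, of an acidic ribosomal protein, had root signals between 25.7 and 56.5 on the 10 earlier arrays and 78.6 and 84.4 at 24 h. AT5G14500, of the aldose epimerase family, had root signals between 60.4 and 78.8 on the 10 earlier arrays and 118 and 107 at 24 h. In both, each array at 24 h exceeded every earlier one. AT4G29620, of the cytidine deaminase family, had root signals between 1.39 and 8.78 on the 10 earlier arrays and 13.5 and 12.5 at 24 h. AT3G07540, of the actin-binding formin family, had root signals between 43.1 and 124 on the 10 earlier arrays and 148 and 155 at 24 h.

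The remaining genes among the 20 highest-scoring probe sets with 1 listed gene were given no class. Of these AT1G59265 is a pseudogene in the annotation. Its probe set has a suffix that marks probes shared by several transcripts, so its level may be that of more than 1 locus. Its root signals were 12.2 and 7.77 at 0.5 h, 20.1 and 20.001 at 1 h, 37.3 and 26.7 at 3 h, 34.7 and 64.6 at 6 h, 50.9 and 65.2 at 12 h and 133 and 117 at 24 h. AT5G19970 had root signals between 58.3 and 93.8 on the 10 earlier arrays and 173 and 165 at 24 h. AT3G61930 had root signals between 23.4 and 49.6 on the 10 earlier arrays and 88.9 and 187 at 24 h. Neither had an earlier array near those of 24 h. AT3G07720, a protein with kelch repeats, had root signals between 124 and 168 on the 10 earlier arrays and 291 and 427 at 24 h. AT4G14020 had root signals between 46.8 and 66.2 on the 10 earlier arrays and 112 and 107 at 24 h. AT2G18360 had root signals between 211 and 375 on the 10 earlier arrays and 679 and 526 at 24 h. All 5 had both arrays at 24 h above every earlier one.

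The named member genes were spread over the genome. Of the 54 probe sets with 1 gene, 16, 6, 15, 7 and 10 lay on chromosomes 1 to 5, and the nearest 2 member genes had 12 other genes between them. Gene length had a median of 2008 bases, against 2112 over all listed genes.

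The members make up 0.44% of all probe sets, so a count of 0 or 1 says little about a list. Of the 37 damage-induced loci, recalled from published studies, 16 had a listed probe set, and none was a named member. Among these 16, AT5G60250 lay just outside the threshold, at a score of 0.388. The median score of the 16 was -0.16, as the score sets 24 h against the highest earlier time. Their median rise in roots from 0.5 h to 24 h was nonetheless 1.52 on the log2 scale. No listed member was among the 8 genes of mitochondrial stress, 29 of DNA repair, chromatin and replication or 28 of the cytochrome P450 family. The same held for 61 of the cell wall, 60 of proteases and their inhibitors and 67 of ubiquitin and F-box proteins. It also held for 106 of transcription and DNA binding. The list of mitochondrial stress goes by locus. The other lists find a gene only by its name, symbol or synonyms, so they miss the transcription factors and the ubiquitin ligase AT1G74770 described above. A symbol other than the locus was carried by 8 of the 100 members and by 6.95% of all probe sets, which limits what these lists can find. A single member was held by each of these lists: GSTU18 of 13 glutathione transferases, UGT72E1 of 52 glycosyltransferases, CaS of 17 kinases and receptors, and OCT1 of 17 transporters. Of the markers of root hair and xylem, 3 and 1 had a listed probe set, and none was a named member. The 45 members without a listed gene could not be looked up in any list.

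The course in shoots was independent of the rule and was tested with limma on the 12 shoot arrays. The 100 transcripts were on the whole higher in shoots at 24 h, but most did not pass. Against the mean of the 5 earlier times, 30 of the 100 rose and none fell at an adjusted p below 0.05, while 6.57% of all probe sets rose and 7.33% fell. At an unadjusted p below 0.05, 1 of the 100 was lower. Against 0.5 h alone, 29 rose and 3 fell, while 6.52% and 6.53% of all did. The median log2 change against the earlier mean was 0.19 for the 100 and -0.02 for all probe sets, and against 0.5 h it was 0.17 and -0.05. The level at 24 h exceeded the mean of the earlier times for 79 of the 100, and for 43.7% of all probe sets.

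Of the 100, 22 rose in both comparisons, 37 in at least 1, and 61 in neither and fell in neither. These overlaps were not counted over all probe sets, so they describe the members alone. A change of any kind over the 6 times was called for 46 of the 100 and for 29.4% of all. Of the 100, 5 were higher at 24 h than at each of the 5 earlier times, against 0.602% of all probe sets, and these were AT4G14020, AT5G62130, AT2G38740, 252502_at and 261569_at. The 100 highest probe sets by the same score in shoots shared 5 with those of roots, which is 5% of each set, while the members are 0.44% of all probe sets. Both shoot arrays at 24 h lay above all 10 earlier shoot arrays for 16 of the 100 and for 3.85% of all probe sets, and below for 1 and 5.46%.

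**Figure D3:**
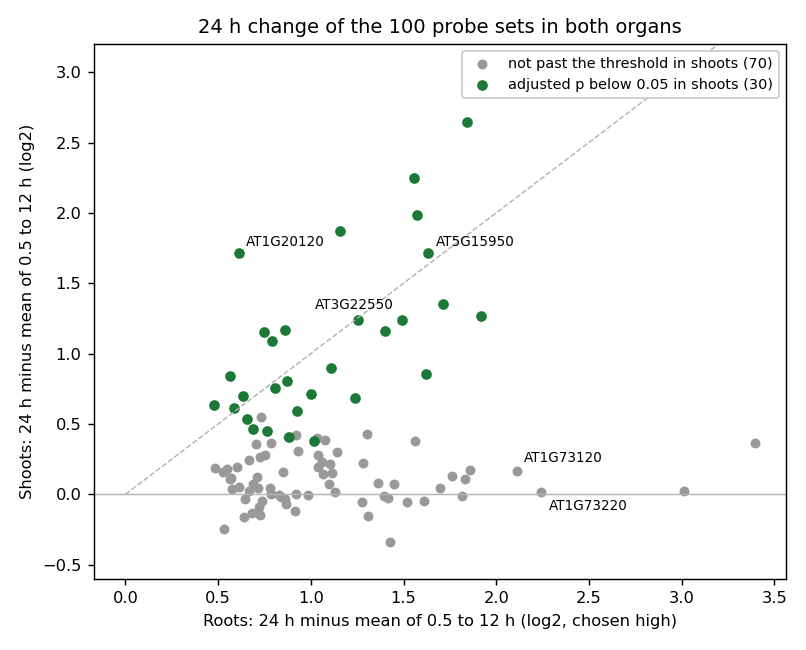
The plot sets, for each of the 100 probe sets, the difference between 24 h and the mean of the 5 earlier times in shoots (vertical, log2) against that in roots (horizontal, log2), by which they were chosen; green points passed the test in shoots, the dashed line marks equal differences and the solid line marks 0. The 30 green points are all above 0, and the other 70, AT1G73120 and OCT1 (AT1G73220) included, lie around it.

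The level in shoots went with whether a member was called. Over the 12 shoot arrays, 41 of the 100 had a mean signal below 16, and 26 were below 16 on every array, near the shares of all probe sets, 34.3% and 25.2%. Of the 41, 1 rose against the earlier mean, and of the other 59, 29 did. How often dim and brighter probe sets of the whole array rose was not counted, so this split cannot be read as particular to the members. In the earlier samples 34 of the 100 were more than 1 log2 unit higher in roots than in shoots, and 17 were more than 1 higher in shoots, against 13.2% and 10.8% of all. No background level was estimated. The added 16 also shrinks the changes of dim members, so that no rise was called does not show that they did not change.

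Leaving out 1 array changed these counts. The counts over all probe sets changed as well, so a lower count is not particular to the members. Without the second shoot array at 24 h, one of the 2 nearest to the roots, 23 of the 100 rose against the earlier mean and 18 against 0.5 h. Without it and the first at 12 h, 25 and 20 rose. Summed root markers on the first and second shoot array at 24 h were 464 and 486, within the earlier range of 399 to 812. Nearly all of each sum was PYK10, at 440 and 466, which ranged from 362 to 798 before. Whether root RNA was present in that sample was not tested. AT3G15650, which had shoot signals of 3.05 and 2.57 at 0.5 h, 19.4 and 18.7 at 1 h, 7.39 and 9.60 at 3 h, 11.9 and 9.17 at 6 h, 28.01 and 21.6 at 12 h and 3.68 and 56.7 at 24 h, fell once the second array at 24 h was left out, by 0.51 on the log2 scale with an adjusted p of 0.0370, and is named after its values were seen.

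The largest rises in shoots among listed genes were in AT1G20120 and AT5G15950. AT1G20120 had shoot signals of 16.4 and 9.74 at 0.5 h, 14.4 and 14.3 at 1 h, 29.4 and 32.1 at 3 h, 35.6 and 39.8 at 6 h, 172 and 153 at 12 h and 207 and 117 at 24 h. It rose 1.72 ± 0.17 (log2, SE) against the earlier mean (limma, adjusted p = 1.79e-04) and 2.57 ± 0.22 against 0.5 h (adjusted p = 9.36e-05). Its 2 arrays at 12 h already lay above one of those at 24 h, so the rise began before that time. AT5G15950, the S-adenosylmethionine decarboxylase gene, had shoot signals of 152 and 109 at 0.5 h, 691 and 794 at 1 h, 173 and 164 at 3 h, 65.9 and 77.1 at 6 h, 221 and 216 at 12 h and 701 and 648 at 24 h. It rose 1.71 ± 0.11 against the earlier mean (adjusted p = 1.35e-05) and 2.25 ± 0.14 against 0.5 h (adjusted p = 2.03e-05), with a peak at 1 h as high as that at 24 h. In both tissues, 1 h and 24 h were its highest times.

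AT3G22550 rose 1.24 ± 0.15 in shoots against the earlier mean (log2, SE; adjusted p = 6.94e-04). Its shoot signals were 76.8 and 58.6 at 0.5 h, 96.4 and 73.8 at 1 h, 55.7 and 57.7 at 3 h, 29.2 and 52.2 at 6 h, 224 and 239 at 12 h and 192 and 234 at 24 h, so 12 h and 24 h were about equally high. Its root signals were 72.4 and 58.05 at 0.5 h, 48.2 and 60.5 at 1 h, 49.1 and 28.8 at 3 h, 73.5 and 99.2 at 6 h, 151 and 174 at 12 h and 225 and 242 at 24 h, and those at 12 h also lay above all before them. AT5G62130 rose 1.15 ± 0.08 (adjusted p = 3.03e-05), with shoot signals of 97.6 and 99.99 at 0.5 h, 90.8 and 95.2 at 1 h, 82.8 and 79.95 at 3 h, 39.97 and 49.4 at 6 h, 68.7 and 77.6 at 12 h and 195 and 182 at 24 h. AT4G14020 rose 1.09 ± 0.09 (adjusted p = 6.04e-05), with shoot signals of 72.4 and 80.2 at 0.5 h, 94.4 and 96.6 at 1 h, 48.6 and 40.04 at 3 h, 111 and 95.3 at 6 h, 147 and 142 at 12 h and 191 and 217 at 24 h. These last 2 were higher at 24 h than at every earlier time, on both arrays.

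AT2G38740 rose 0.84 ± 0.10 in shoots (log2, SE; adjusted p = 5.89e-04), with shoot signals between 91.6 and 177 on the 10 earlier arrays and 266 and 240.2 at 24 h. AT3G53980, the lipid transfer protein gene, rose 1.17 ± 0.23 (adjusted p = 0.00777), with shoot signals between 14.6 and 44.7 on the 10 earlier arrays and 75.6 and 104 at 24 h, but with only the first array at 24 h it did not pass (0.97, adjusted p = 0.0906). The kinase family gene AT5G11410 rose 0.76 ± 0.13 (adjusted p = 0.00388), and its shoot signals at 12 h were 36.1 and 21.8 against 34.5 and 28.7 at 24 h. With only the second array at 24 h it did not pass (0.67, adjusted p = 0.0504). AT5G19970 rose 0.72 ± 0.11 (adjusted p = 0.00246) and AT3G07720 rose 0.69 ± 0.10 (adjusted p = 0.00149). Against 0.5 h, AT1G11700 rose 1.19 ± 0.16 (adjusted p = 0.00104), although its highest shoot arrays were those at 12 h, at 114 and 138.

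**Figure D4:**
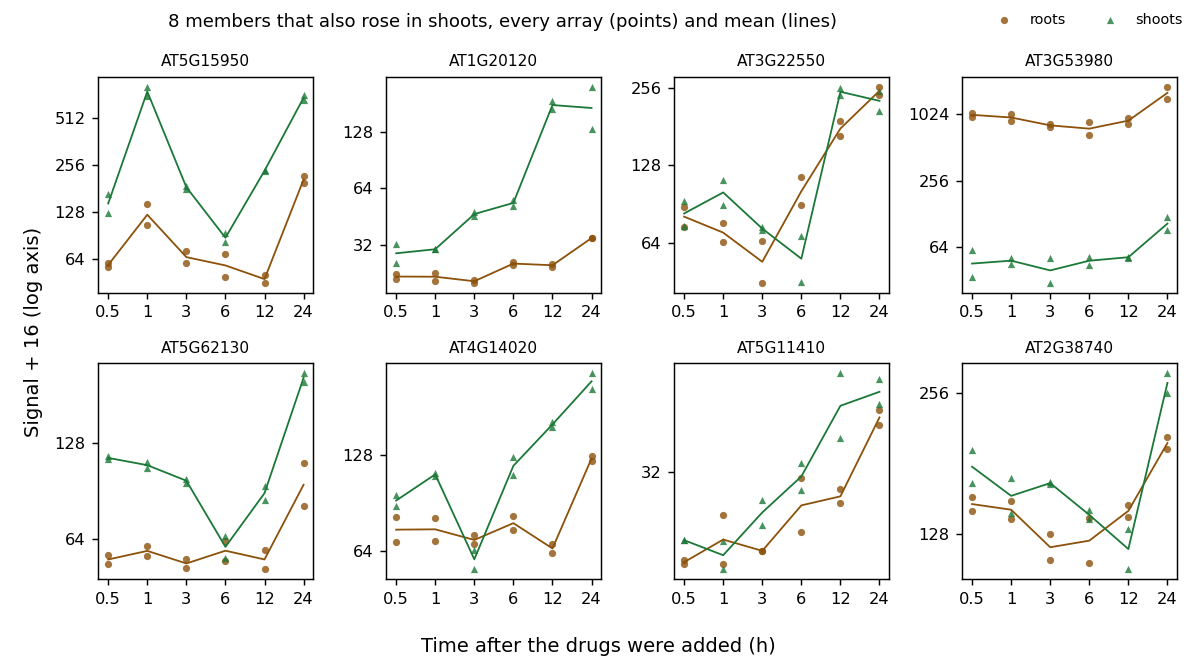
The plot shows signal plus 16 on a log axis against hours after the drugs were added, for 8 members that rose in shoots, in roots (brown circles) and shoots (green triangles), with a point for each array and a line through the mean of 2. AT5G15950 had a peak at 1 h in both tissues, AT1G20120 and AT3G22550 were already high at 12 h in shoots, and AT5G62130 and AT4G14020 were highest at 24 h in both.

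CaS, bright in shoots, passed narrowly there, with a rise of 0.46 (adjusted p = 0.0399) from a mean that fell to 1355 and 1466 at 6 h, and its call was lost in 11 of 21 alternatives. PSAE-1 had shoot signals between 3554 and 5959.5 on the 10 earlier arrays and 4866 and 3653 at 24 h and a log2 change of -0.24 (adjusted p = 0.373).

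AT2G39980 and AT3G18560 fell in shoots against 0.5 h, unlike their course in roots. AT2G39980 had shoot signals of 162 and 147 at 0.5 h, 56.5 and 54.5 at 1 h, 40.1 and 41.3 at 3 h, 32.8 and 30.98 at 6 h, 53.6 and 23.6 at 12 h and 54.6 and 61.6 at 24 h. It fell by 1.20 ± 0.21 on the log2 scale (adjusted p = 0.00497), and its arrays at 1 h were already near the level of 24 h. AT3G18560 had shoot signals of 108 and 117 at 0.5 h, 32.7 and 36.01 at 1 h, 25.7 and 30.7 at 3 h, 18.6 and 22.6 at 6 h, 12.6 and 11.8 at 12 h and 49.01 and 47.7 at 24 h. Its root signals were 161 and 167 at 0.5 h, 149 and 119 at 1 h, 124 and 121 at 3 h, 83.9 and 82.8 at 6 h, 158 and 184 at 12 h and 253 and 313 at 24 h. It fell by 0.998 ± 0.12 against 0.5 h (adjusted p = 7.63e-04) and rose 0.38 against the earlier mean (adjusted p = 0.0257), a call lost with either array at 24 h alone (adjusted p of 0.154 and 0.118). Its shoot level was lowest at 12 h and part of the way back at 24 h. The difference between tissues was not tested.

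Several genes with high root scores did not pass in shoots. AT1G73120, which has no class here, changed by 0.17 on the log2 scale (adjusted p = 0.635) with shoot signals between 1.01 and 16.5 on the 10 earlier arrays and 10.1 and 6.74 at 24 h, and the first probe set of AT1G74770 by 0.13 (adjusted p = 0.526) with shoot signals between 9.85 and 21.5 on the 10 earlier arrays and 19.9 and 20.5 at 24 h. OCT1 stayed at the bottom of the range in shoots, between 0.260 and 0.745 on the 10 earlier arrays and 0.459 and 0.854 at 24 h. AT5G38820 had shoot signals between 29.4 and 43.2 on the 10 earlier arrays and 28.1 and 36.9 at 24 h, similar to its earlier level in roots, and a change of -0.05 (adjusted p = 0.819). UGT72E1 had shoot signals between 66.2 and 163 on the 10 earlier arrays and 114 and 119.95 at 24 h and a change of -0.01 (adjusted p = 0.976).

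Among the unlisted probe sets, 15 rose in shoots against the earlier mean. The 4 with the highest root scores among those whose arrays at 24 h lay above all earlier ones were 250832_at, 252502_at, 261569_at and 247964_at. In shoots 250832_at rose 1.27 ± 0.14 (log2, SE; adjusted p = 3.21e-04), 252502_at rose 1.24 ± 0.10 (adjusted p = 6.52e-05) and 247964_at rose 1.16 ± 0.10 (adjusted p = 8.26e-05). The largest rise of all 100 was that of 261569_at, 2.65 ± 0.09 (adjusted p = 4.39e-07), with shoot signals of 541 and 436 at 0.5 h, 504 and 478 at 1 h, 107 and 96.5 at 3 h, 16.6 and 20.2 at 6 h, 16.4 and 13.6 at 12 h and 769.96 and 775 at 24 h. Most of it came from the low values between 3 h and 12 h, and against 0.5 h it rose 0.65 ± 0.12 (adjusted p = 0.00499).

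Such a dip before 24 h was shared by both tissues in 5 of the 100, where the mean at 12 h lay more than 1 log2 unit below the mean of 0.5 h and 1 h in roots and in shoots, and in 0.193% of all probe sets. All 5 are unlisted probe sets, and 4 rose in shoots at 24 h against the earlier mean. The low level at 12 h is part of that mean, so these rises follow in part from how the 5 were picked. An example, named after its values were seen, is 266719_at, with root signals of 35.9 and 37.2 at 0.5 h, 25.4 and 30.6 at 1 h, 12.8 and 12.7 at 3 h, 9.34 and 7.52 at 6 h, 6.57 and 3.19 at 12 h and 102 and 59.2 at 24 h. Its shoot signals were 559 and 519 at 0.5 h, 699.96 and 727 at 1 h, 226 and 213 at 3 h, 22.05 and 40.2 at 6 h, 6.32 and 1.74 at 12 h and 797 and 647 at 24 h. In both tissues it was lowest at 12 h, the sample taken 15 h after lights on, and stood at 24 h at or above its level at 0.5 h. The hour of sampling and the time under treatment changed together here and cannot be told apart. Against 0.5 h, the nearest match in hour, 266719_at changed by 0.41 in shoots (adjusted p = 0.182).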

How the data were processed

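Transcript levels were measured on 24 ATH1 arrays. The files hold linear signal intensities as deposited. MAS5 is the tool that the submitters' processing notes name; its version and settings are not given in the sources used here. On every array the mean signal was 100 once 2% of probe sets at each end were left out. The array holds 22810 probe sets, of which 64 controls were left out. Detection calls were not used, so no depth applies and the number of arrays limits the precision.

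Signals were turned to log2(signal + 16), which understates the change of dim probe sets. Members were found by the root score, so their root values carry no test. The 12 shoot arrays were fitted alone in R 4.3.3 with limma 3.58.1, a mean per time and moderated variances that follow the intensity (6 residual degrees of freedom and 3.82 from the prior). P-values were two-sided and adjusted by Benjamini and Hochberg over 22746 probe sets in each comparison, with a call at an adjusted p below 0.05. The smallest fold called was 1.13 against the earlier mean and 1.19 against 0.5 h. Errors are limma's standard errors. The fit was tested on simulated data. Python 3.11.15, numpy 2.4.6, pandas 2.3.3 and matplotlib 3.10.9 made the tables and plots.

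Names came from GEO's annotation of the platform, and 13508 of 13513 with 1 gene were matched to TAIR10.1. Roles come from general knowledge of the loci. The members and gene lists were chosen with earlier results of these data known, and the role classes after the members were seen. Genes were named by this rule: the 20 highest scores, the largest changes in shoots (at most 10 each way against the earlier mean and 6 against 0.5 h), the 4 highest scores in each function list, and the members at the threshold. Genes described by role outside this rule were chosen after their values were seen. Alternatives were pseudocounts of 1 and 64, quantile normalization, median centring, a filter on the dimmest 30%, variances without trend, all 24 arrays in 1 fit, the replicate number as a block, a baseline of 1 h and each array left out in turn.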

Additional observations from a re-analysis of the deposited data

Results flagged for a closer look

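In roots both arrays of the second probe set of AT1G74770, the gene of the iron-related ubiquitin ligase, lay above all earlier arrays at 24 h, and in shoots both lay below all earlier arrays. The shoot signals were 0.240 and 0.277 at 24 h against 0.291 to 0.535 before, all at the bottom of the array's range. The log2 change after 16 was added was -0.0113 (limma, adjusted p = 0.906), so no change was called. The gene's first probe set changed by 0.13 in shoots (adjusted p = 0.526). The difference between the tissues was not tested. In shoots, both arrays lay below the earlier ones for 5.46% of all probe sets.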

How the results depend on the processing

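Membership depended on the scoring: of the 100, 71 were shared with a pseudocount of 1, 72 with one of 64, 94 with quantile normalization or median centring, 71 with the mean of both 24 h arrays, and 54 to 96 with 1 root array left out. With 1 shoot array left out, the rises against the earlier mean numbered 23 to 31 among the 100 and 987 to 1498 over all probe sets, the falls 0 to 1 and 853 to 1671. Against 0.5 h the rises numbered 18 to 27 and 910 to 1484, the falls 3 to 4 and 1002 to 1439, and any change over time 39 to 45 and 5350 to 6426. A group left with 1 array was taken to vary as the other groups do. Without both arrays nearest the roots, 1 of the 100 and 1094 of all fell against the earlier mean. With all 24 arrays in 1 fit, 2301 of all fell against 0.5 h. With 1 h in place of 0.5 h as the baseline, 16 of the 100 rose and 0 fell (limma; 1 at an unadjusted p below 0.05), and the log2 changes of AT5G15950 (-0.13), AT1G73630 (-0.26), AT1G11700 (-0.15), AT3G18560 (0.35) and AT2G39980 (0.052) turned direction. With the replicate block, 29 rose against the earlier mean and 27 against 0.5 h. Rises over all probe sets with the block or the 1 h baseline are not given here. In shoots, the differences between the 2 replicates were compared across times, with r of -0.107 to 0.199 over 15 pairs of times. The median r was 0.004, and 2 pairs had r over 0.1. Whether arrays of the same number belong together is not given in the labels.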

Other observations

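A list of 44 loci that other work found to respond to iron shortage in roots was written from recall after the members had been seen, so it supports nothing and was given no test. Of its 17 genes with a listed probe set, 9 were members: AT1G73120, AT5G38820, AT1G74770, UGT72E1, AT3G61930, AT3G58060, AT3G07720, AT3G61410 and AT3G12900. The 17 had a median difference of 1.26 on the log2 scale between 24 h and 0.5 h in roots. This median includes the 9 members, which were chosen for a high root level at 24 h. In shoots, the median difference between 24 h and the earlier mean was 0.07. Others of the list were not late in this sense, such as AT1G47400, which was 1.49 higher at 24 h than at 0.5 h but had a score of -1.20, and PYE, a transcription factor of the iron response, with a difference of 0.18.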
